A study of Mus musculus with 24 samples.

Results

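The genes described here are 10 markers of the muscle and pacemaker cells of the gut wall, chosen by symbol, of 23329 gene symbols in the deposited tables. Acta2, Actg2, Myh11, Des, Tagln, Cnn1, Smtn and Lmod1 encode proteins of the smooth muscle contractile apparatus, and Kit and Ano1 are the usual markers of the interstitial cells of Cajal, the pacemaker cells of gut muscle. All 10 symbols were present in the tables, and the values of their transcripts were summed per symbol.

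Messenger RNA was sequenced from colon of C57Bl/6 mice in 24 libraries, 4 in each of 6 groups. Epithelial cells came from VilCre-CMVcaNrf2 mice without treatment and from VilCre control mice without treatment. Pieces of whole colon wall, 10 mm long and cut about 10 to 20 mm from the rectum, came from VilCre-CMVcaNrf2 mice given dextran sulfate sodium (DSS), VilCre mice given DSS, untreated VilCre-CMVcaNrf2 mice and untreated VilCre mice. DSS injures the epithelium of the mouse colon and is used to cause colitis. All groups carry VilCre, a Cre recombinase driven by the villin promoter, which is active in gut epithelium and not in muscle, and the transgenic mice carry in addition caNrf2, which encodes NRF2, a transcription factor of the antioxidant response, in a constitutively active form. The transgenic mice are called caNrf2 below and the VilCre mice controls. The DSS dose, its duration and the ages of the mice do not stand in the labels used here, and nothing in the labels says that the libraries of a group came from separate animals, so the p-values below measure the spread between these libraries, which may be technical.

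Contraction of gut smooth muscle is driven by myosin that pulls on thin filaments of smooth muscle actin, with calponin, transgelin, smoothelin and leiomodin bound to the filaments and desmin linking them to the rest of the cell. Most of these genes are switched on by serum response factor with its cofactor myocardin, through a DNA element called the CArG box. Interstitial cells of Cajal set the rhythm of the muscle through the calcium-activated chloride channel ANO1, and they depend on signalling through the receptor KIT. Neither gene belongs to those cells alone: mast cells carry KIT, and ANO1 is also found in epithelia.

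The total count per library lay between 7736523 and 15399862 in caNrf2 epithelial cells, 6683803 and 14291452 in control epithelial cells, 27500311 and 43318911 in caNrf2 wall with DSS, 20232309 and 44483248 in control wall with DSS, 21493177 and 154336039 in untreated caNrf2 wall, and 22823697 and 105029761 in untreated control wall. Nfe2l2, the gene of NRF2, lay between 169 and 258 TPM in caNrf2 epithelial cells, against 106 to 136 TPM in control epithelial cells. In untreated wall it lay between 98.8 and 165.7 TPM in caNrf2 mice and between 65.6 and 125.2 TPM in controls, so the wall ranges overlapped. No pair of libraries of a group was alike within counting noise. Libraries of replicate 4 in the wall groups carry another first number in their deposited names than replicates 1 to 3, and what that number stands for is not stated.

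The genes lie on 8 mouse chromosomes of build mm10. Acta2 spans chr19:34241091-34255336 on the minus strand, Actg2 spans chr6:83512909-83536251 (minus), Myh11 spans chr16:14194527-14291408 (minus) and Des spans chr1:75360344-75367715 (plus). Tagln spans chr9:45929628-45936058 (minus), Cnn1 spans chr9:22099253-22109221 (plus), Smtn spans chr11:3517522-3539292 (minus) and Lmod1 spans chr1:135324813-135368065 (plus). Kit spans chr5:75574987-75656721 (plus) and Ano1 spans chr7:144588549-144738592 (minus). Myh11, Smtn, Kit and Ano1 are listed with 2 transcripts each and the other 6 genes with 1.

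RefSeq promoter windows on GRCm38.p6 were at hand for 7 of the 10 genes, without Actg2, Myh11 and Tagln. The 250 bases before the transcription start are shown for Acta2, the 1 gene in which CArG box letters were found, and for Smtn and Lmod1, the genes that were called higher with DSS in both genotypes. They run 5′ to 3′ on the gene's strand, and capitals mark the matches to the CArG box with 1 of its core letters replaced by C or G.
Acta2, chr19:34255374-34255623: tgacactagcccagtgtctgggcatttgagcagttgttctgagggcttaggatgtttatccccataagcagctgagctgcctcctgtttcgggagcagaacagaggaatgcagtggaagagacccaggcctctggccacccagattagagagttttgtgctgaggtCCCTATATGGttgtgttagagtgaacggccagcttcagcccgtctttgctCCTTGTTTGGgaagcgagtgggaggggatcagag
Smtn, chr11:3539293-3539542: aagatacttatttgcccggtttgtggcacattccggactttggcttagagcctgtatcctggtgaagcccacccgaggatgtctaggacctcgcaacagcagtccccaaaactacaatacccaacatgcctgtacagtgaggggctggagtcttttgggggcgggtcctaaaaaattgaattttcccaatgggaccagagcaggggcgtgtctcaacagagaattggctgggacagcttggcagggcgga
Lmod1, chr1:135324563-135324812: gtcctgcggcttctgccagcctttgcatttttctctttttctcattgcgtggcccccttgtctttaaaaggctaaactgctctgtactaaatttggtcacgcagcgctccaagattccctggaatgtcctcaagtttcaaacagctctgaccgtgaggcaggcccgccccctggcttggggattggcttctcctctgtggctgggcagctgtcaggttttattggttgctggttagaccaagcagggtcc
The Acta2 matches began at positions -84 and -34 from the start. Neither is an exact CArG box, and the windows of Smtn, Lmod1, Des, Cnn1, Kit and Ano1 held no match of either kind. Of 32851 promoter windows of 300 bases searched on both strands, 1.63% held an exact CArG box, 8.5% one with a replaced core letter, and 9.98% either.

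The smooth muscle genes were among the abundant messages of the wall. By TPM, which is corrected for transcript length and so allows genes to be set side by side, the level in untreated control wall was 3155 ± 170 for Tagln, 2899 ± 366 for Actg2, 2808 ± 502 for Acta2, 1725 ± 186 for Des, 1174 ± 220 for Cnn1, 728 ± 171 for Myh11 and 168 ± 51.8 for Smtn (SD, n = 4). Below them came Ano1 with 94.5 ± 24.7, Lmod1 with 46.7 ± 20.6 and Kit with 14.8 ± 3.83 TPM. The first 3 of this order did not differ beyond their spread, and the library ranges of Cnn1 and Myh11, and of Ano1 and Lmod1, overlapped. In TPM summed over the 10 genes, the libraries lay between 13398 and 22985 in caNrf2 wall with DSS, 8805 and 33335 in control wall with DSS, 9511 and 12130 in untreated caNrf2 wall and 12090 and 13303 in untreated control wall. The widest range was that of control wall with DSS, which reached beyond the other wall groups at both ends.

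**Figure D1:**
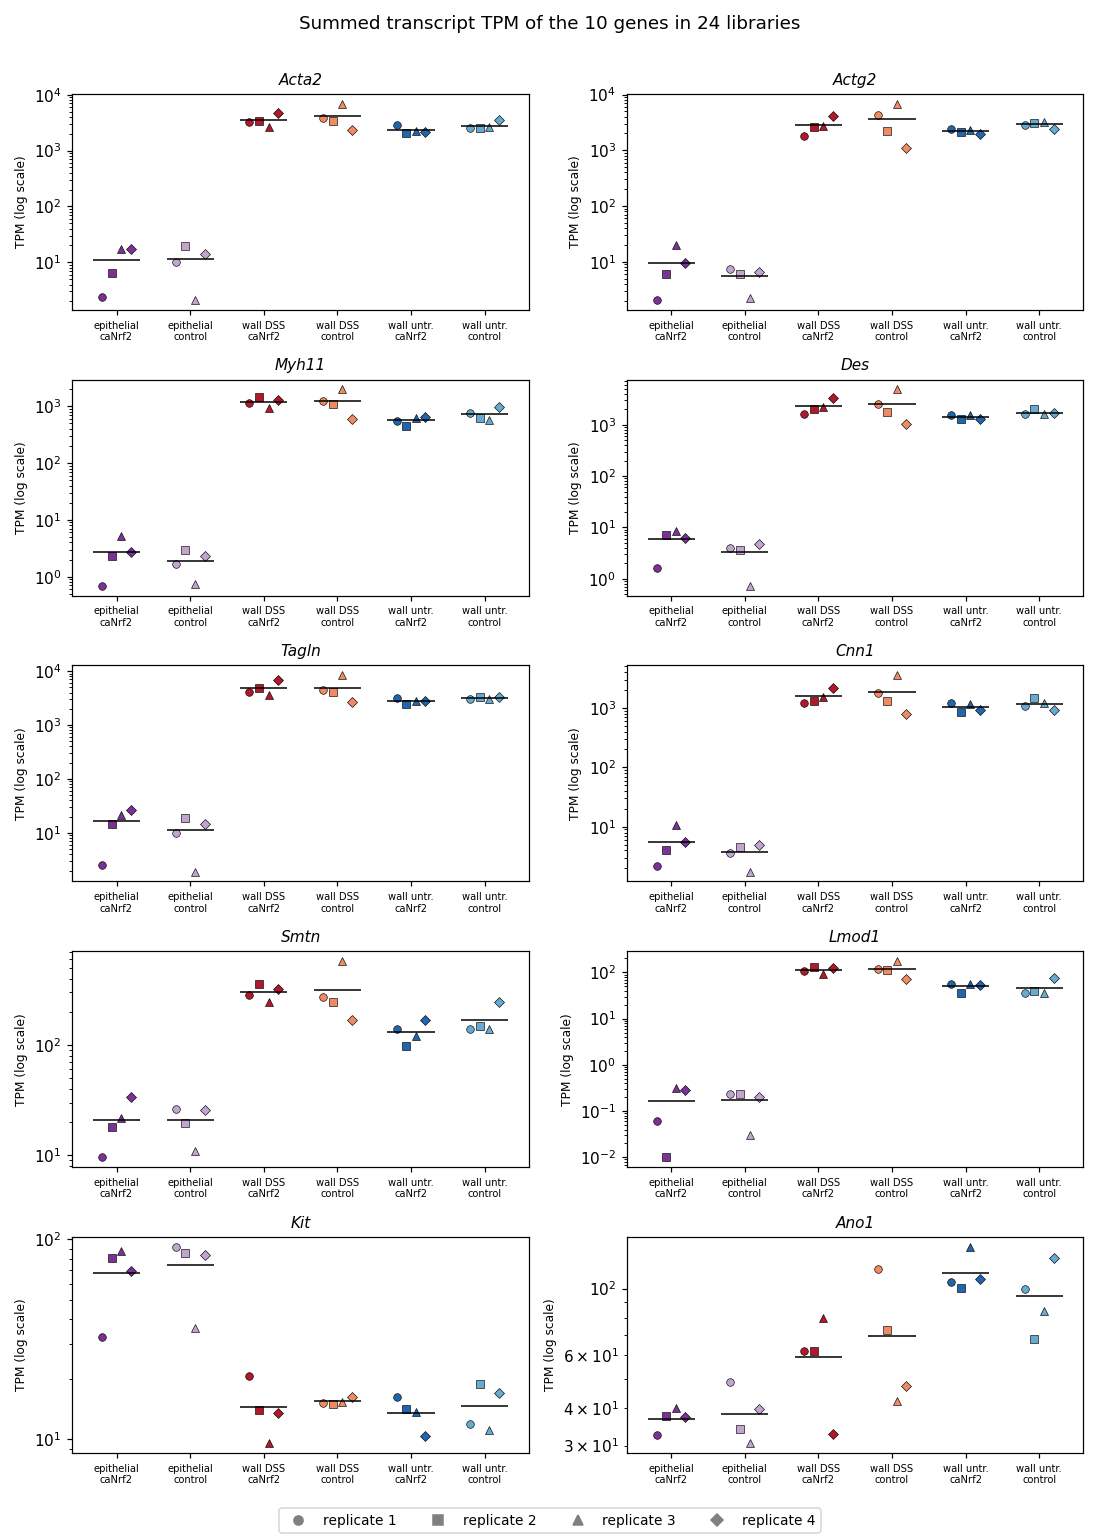
Summed transcript TPM (log axis) of each of the 10 genes in each of 24 libraries, with 1 panel per gene, 1 symbol per replicate number and a line at the group mean. Lmod1 in caNrf2 epithelial cells, replicate 2, is listed at 0 and drawn at 0.01. The 8 smooth muscle genes sit far lower in epithelial cells than in wall, and Kit sits higher there.

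Epithelial cells carried little of the smooth muscle genes and more Kit than the wall. All 8 smooth muscle genes and Ano1 were lower in epithelial cells than in untreated wall, in caNrf2 mice and in controls, and Kit was higher in both. That is 9 of 10 genes lower in caNrf2 mice, beside 23.5% of 15073 genes tested, and 9 of 10 lower in controls, beside 19.7%. The 1 gene higher stood beside 20.0% of all genes in caNrf2 mice and 18.9% in controls. All 10 calls were also made by DESeq2 and by limma-voom.

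Acta2, the smooth muscle alpha actin, had 2.39, 6.51, 17.4 and 17.6 TPM in caNrf2 epithelial cells, against 2345 ± 359 TPM in untreated caNrf2 wall (SD, n = 4). In control epithelial cells it had 10.1, 19.4, 2.11 and 14.3 TPM, against 2808 ± 502 TPM in untreated control wall. Every epithelial library lay over 100 times below every untreated wall library. The log2 fold change of Acta2 was -7.96 ± 0.65 in controls (SE). Actg2, the enteric gamma actin, reached 2.06 to 19.8 TPM in caNrf2 and 2.26 to 7.29 TPM in control epithelial cells. Lmod1, leiomodin 1, which starts actin filaments, was nearly absent, with 2, 0, 9 and 5 counts in caNrf2 epithelial cells and 6, 6, 1 and 3 counts in control epithelial cells. Smtn, smoothelin, was the exception among the 8 in size: it had 9.53 to 33.6 TPM in caNrf2 and 10.8 to 26.4 TPM in control epithelial cells, and its log2 fold change was -2.69 in caNrf2 mice and -3.01 ± 0.30 in controls, while the other 7 lay between -8.31 and -7.46 in caNrf2 mice and between -9.09 and -7.96 in controls.

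At these low levels the actins are uncertain. Acta1, the skeletal muscle actin, had 21.8 to 152 TPM in caNrf2 and 31.8 to 122 TPM in control epithelial cells, above Acta2 in both, while Ckm, the muscle creatine kinase, was listed at 0 in 2 of 4 caNrf2 and 4 of 4 control epithelial libraries. The coding sequences of the actins are closely alike, and whether reads were shared out among them was not tested.

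The remaining smooth muscle RNA and the endothelial markers were lowest in the same library of each epithelial group. CaNrf2 replicate 1 was the lowest of its group for 7 of 7 smooth muscle genes tested there, and control replicate 3 the lowest of its group for 7 of 7. Those same libraries had the lowest summed endothelial markers, 6.07 TPM against 26.3 to 62.3 TPM in the other caNrf2 libraries and 5.02 TPM against 26.1 to 39.8 TPM in the other controls, and the highest summed epithelial markers, 50449 and 46686 TPM. They also had the lowest Kit, and the highest total counts of their groups, 15399862 and 14291452. The part of these differences in the results was not tested. The summed epithelial markers had a median of 22954 TPM in caNrf2 and 16694.5 TPM in control epithelial cells. In untreated wall the medians were 27474 TPM in caNrf2 mice and 24194 TPM in controls. Of 12 epithelial markers tested, 2 were higher in epithelial cells in both genotypes, beside 20.0% of all genes in caNrf2 mice and 18.9% in controls. In caNrf2 mice 1 was lower, beside 23.5%, and in controls 2, beside 19.7%.

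Kit stood apart from the muscle genes. It had 32.6, 80.4, 87.6 and 69.9 TPM in caNrf2 epithelial cells, against 13.6 ± 2.41 TPM in untreated caNrf2 wall (SD, n = 4). In control epithelial cells it had 91.9, 85.5, 36.1 and 83.2 TPM, against 14.8 ± 3.83 TPM in untreated control wall. No epithelial library overlapped the untreated wall, also not the lowest of each group. The log2 fold change was 2.29 ± 0.26 in caNrf2 mice (SE, edgeR adjusted p = 5.95e-06) and 2.34 ± 0.26 in controls (adjusted p = 4.88e-06).

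Ano1 was lower in epithelial cells by less than the muscle genes. It had 36.9 ± 3.12 TPM in caNrf2 epithelial cells against 113 ± 16.8 TPM in untreated caNrf2 wall, and 38.3 ± 7.96 TPM in control epithelial cells against 94.5 ± 24.7 TPM in untreated control wall (SD, n = 4 each). Its log2 fold change was -1.60 ± 0.16 in caNrf2 mice (edgeR adjusted p = 1.39e-06) and -1.28 ± 0.16 in controls (adjusted p = 1.18e-05). Counted within each library, the log2 ratio of Kit to Ano1 was 0.95 ± 0.53 in caNrf2 epithelial cells against -2.89 ± 0.34 in untreated caNrf2 wall, and 1.06 ± 0.46 in control epithelial cells against -2.51 ± 0.56 in untreated control wall (SD, n = 4 each). All 8 epithelial libraries had more Kit than Ano1 counts, and all 16 wall libraries fewer.

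In epithelial cells the level of Kit differed in direction from that of most other pacemaker cell genes, and which cells its RNA came from was not tested. Of the 10 tested genes listed for interstitial cells of Cajal and their niche, 7 were lower and 1 was higher in epithelial cells in both genotypes, beside 23.5% of all genes lower and 20.0% higher in caNrf2 mice and 19.7% lower and 18.9% higher in controls. The 1 higher was Slc12a2, a chloride cotransporter that crypt epithelium also uses, with a log2 fold change of 1.56 ± 0.28 in controls. Gjc1, a connexin, was at -3.70 ± 0.52 and Tmem100 at -3.03 ± 0.71 there. Mast cell markers summed to 8.29 to 12.2 TPM in caNrf2 and 11.6 to 17.8 TPM in control epithelial cells, and to 10.2 to 12.04 TPM in untreated caNrf2 and 9.59 to 17.4 TPM in untreated control wall. Of the 6 mast cell markers tested, 3 were higher in epithelial cells in both genotypes, and 2 were lower in caNrf2 mice and 1 in controls. Mcpt1 and Mcpt2, mast cell proteases of the mucosa, were higher in control epithelial cells by log2 2.70 ± 0.41 and 3.20 ± 0.76, Cma1 lower by -4.27 ± 0.72. Cpa3, the mast cell carboxypeptidase, was listed at 0 in 4 of 4 caNrf2 and 2 of 4 control epithelial libraries, and Fcer1a, the IgE receptor chain, at 0 in all 8. The part of mast cell RNA in the level of Kit was not tested.

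**Figure D2:**
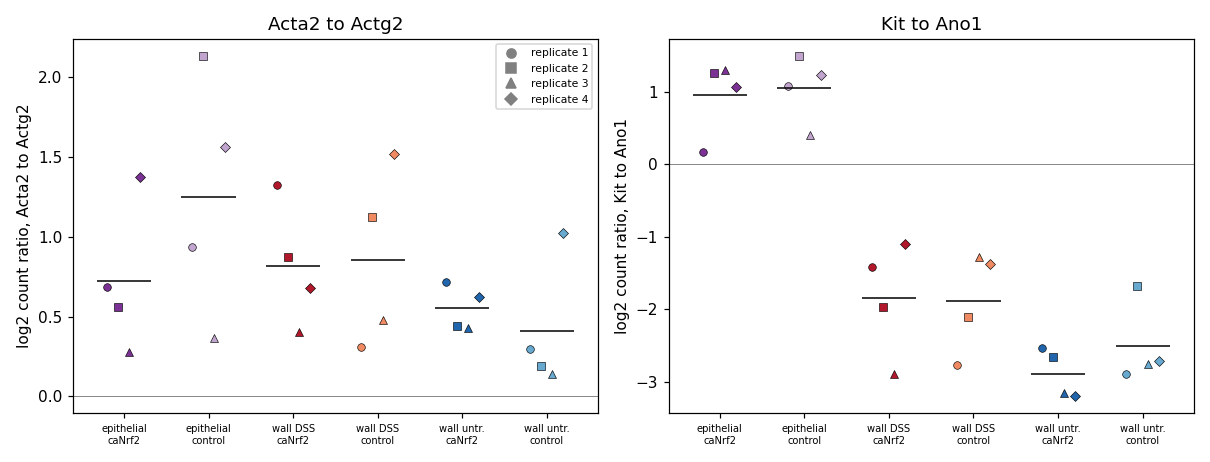
Log2 ratio of counts of Acta2 to Actg2 (left) and of Kit to Ano1 (right) in each of 24 libraries, with 1 symbol per replicate number and a line at the group mean. All 8 epithelial libraries lie above 0 for Kit to Ano1 and all 16 wall libraries below it.

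The caNrf2 transgene moved none of the 10 genes past the threshold. In epithelial cells 0 of 9 genes tested were called between caNrf2 and control mice, beside 0.0% of 12941 genes by edgeR's quasi-likelihood test at adjusted p below 0.05. Across all genes 1344 had an unadjusted p below 0.05, and of the 9 genes none did. In untreated wall 0 of 10 were called, beside 0.224% of 16074 genes, with 1681 genes at an unadjusted p below 0.05 and none of the 10. In wall with DSS 0 of 10 were called, beside 0.0933%, with 407 genes at an unadjusted p below 0.05 and none of the 10. DESeq2 and limma-voom with quality weights likewise called 0 of the genes in each of these comparisons, although they called more of all genes. Over all genes DESeq2 called 80 higher and 135 lower in epithelial cells, 123 higher and 112 lower in untreated wall, and 41 higher and 2 lower in wall with DSS. Limma-voom called 565 higher and 727 lower in epithelial cells, 1526 higher and 965 lower in untreated wall, and 0 in wall with DSS.

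The fitted differences between genotypes did not pass the threshold, although some exceeded their SE. In untreated wall the log2 fold changes of caNrf2 over control lay between -0.41 ± 0.45 for Actg2 and 0.28 ± 0.26 for Ano1. In wall with DSS they lay between -0.34 ± 0.45 for Actg2 and 0.02 ± 0.34 for Tagln. In epithelial cells they lay between -0.10 ± 0.27 for Kit and 0.89 ± 0.56 for Des (SE). All 4 wall groups shared 1 estimate of the spread per gene, so the SE and p-values in untreated wall also hold the spread with DSS. For the 8 smooth muscle genes that spread was wider with DSS. Their median coefficient of variation by CPM was 44.8% in caNrf2 and 61.3% in control wall with DSS, against 13.4% and 15.1% untreated. Acta2 averaged 2362 ± 313 CPM in untreated caNrf2 wall and 2778 ± 213 CPM in untreated control wall, and Myh11 averaged 2211 ± 308 CPM in untreated caNrf2 wall and 2773 ± 389 CPM in untreated control wall (SD, n = 4 each), where CPM is the count scaled to library size. Kit averaged 41.4 ± 7.04 CPM in untreated caNrf2 wall and 43.8 ± 8.54 CPM in untreated control wall. Of the 8 smooth muscle genes, 1 had a fitted value above 0 in untreated wall, with a median of -0.249, beside -0.017 over all genes. With DSS it was also 1 of 8, with a median of -0.119 beside -0.019. In epithelial cells 6 of 7 tested were above 0, with a median of 0.545 beside 0.0. These genes share their libraries, and the medians were not tested.

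Leiomodin and smoothelin were called higher with DSS in both genotypes and the myosin in caNrf2 mice. The actins, desmin, transgelin and calponin stayed short of the threshold. The smoothelin calls and the myosin call were lost when certain single libraries were left out. In caNrf2 wall 3 of 10 genes were higher with DSS, beside 23.1% of 16074 genes tested, and 1 was lower, beside 18.1%. In control wall 2 of 10 were higher, beside 23.1%, and 0 were lower, beside 16.1%. Those shares are near the background, so the counts say nothing particular of these genes. All 8 smooth muscle genes had fitted log2 fold changes above 0 in both genotypes, with a median of 0.65 in caNrf2 and 0.53 in control wall, beside medians of 0.01 and 0.06 over all genes tested. The sign was not stable for some: with limma-voom Actg2 was at -0.04 in caNrf2 and -0.47 in control wall, and without control DSS replicate 3 Actg2, Des and Cnn1 were at -0.42, -0.14 and -0.07 in control wall. In whole wall, more muscle cells in a piece and more RNA per cell cannot be told apart.

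**Figure D3:**
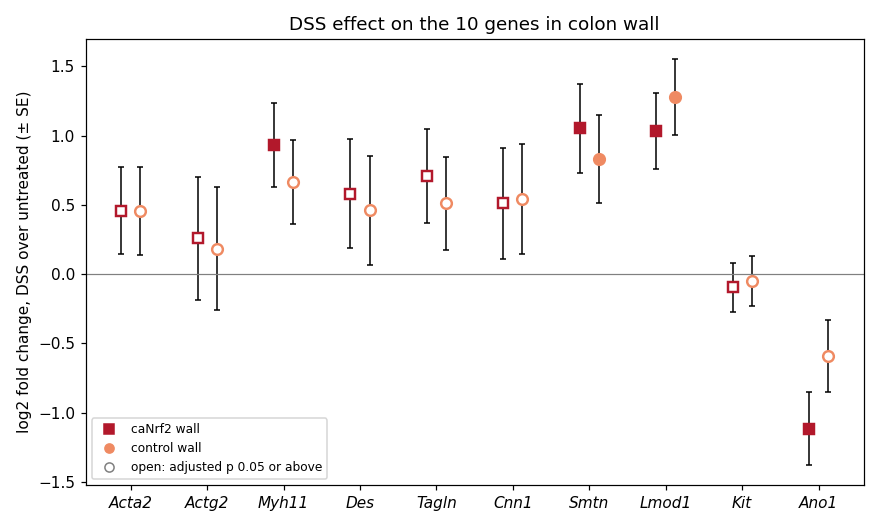
Log2 fold change of DSS over untreated wall with its SE for each of the 10 genes, squares for caNrf2 and circles for control mice, filled where the adjusted p is below 0.05. Smtn and Lmod1 are filled on the higher side in both genotypes and Myh11 in caNrf2 mice, and Ano1 is filled on the lower side in caNrf2 mice.

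Lmod1 had the largest difference of the 8 in control wall. It had 184, 249.2, 193 and 321 CPM in caNrf2 wall with DSS, against 129, 85.7, 123 and 125 CPM in untreated caNrf2 wall. Control wall had 228, 226, 399 and 145 CPM with DSS, against 87.1, 87.1, 90.5 and 147 CPM untreated. The groups did not overlap in caNrf2 mice, and in controls the lowest DSS library fell below the highest untreated one. The log2 fold change was 1.03 ± 0.27 in caNrf2 wall (SE, edgeR adjusted p = 0.007) and 1.28 ± 0.27 in control wall (adjusted p = 0.00214). Without control DSS replicate 3 it was 0.96 in control wall and still called.

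Smtn had 405, 573, 443 and 696 CPM in caNrf2 wall with DSS, against 264, 199, 227 and 331 CPM in untreated caNrf2 wall. Control wall had 441, 423, 1102 and 291 CPM with DSS, against 290, 283, 301 and 392 CPM untreated. The caNrf2 groups did not overlap, and in controls the lowest DSS library lay within the untreated range. Its log2 fold change was 1.05 ± 0.32 in caNrf2 wall (edgeR adjusted p = 0.0158), where the call was lost without untreated replicate 2 (0.95, adjusted p = 0.0526). In control wall it was 0.83 ± 0.32 (adjusted p = 0.0475), and 0.28 without control DSS replicate 3 (adjusted p = 0.336). The control call was also lost when any of the 4 untreated control libraries was left out (adjusted p between 0.0501 and 0.121), with RLE scaling (0.059), with no filter on low counts (0.0577) and with only the groups compared in the fit (0.104).

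Myh11, the smooth muscle myosin heavy chain, had 3222, 4706, 3403 and 5557 CPM in caNrf2 wall with DSS, against 2092, 1841, 2376 and 2536 CPM in untreated caNrf2 wall. These groups did not overlap, and the log2 fold change was 0.93 ± 0.30 (edgeR adjusted p = 0.0223). The call was lost without caNrf2 untreated replicate 1 (adjusted p = 0.0523), untreated replicate 2 (0.0673), DSS replicate 2 (0.0554) or DSS replicate 4 (0.0622). In control wall Myh11 had 4145, 3811, 7609 and 2038 CPM with DSS, against 3151, 2388, 2491 and 3063 CPM untreated. There 3 DSS libraries lay above all untreated ones and 1 below them all, and the log2 fold change was 0.67 ± 0.30 (adjusted p = 0.0905). It was 0.90 without DSS replicate 4 (adjusted p = 0.0172) and 0.26 without DSS replicate 3 (adjusted p = 0.439). Past the threshold in one genotype and not in the other is no difference between genotypes: the interaction was 0.27 ± 0.43 (adjusted p = 0.97).

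The actins did not pass the threshold with DSS. Acta2 had 2378, 2873, 2453 and 5289 CPM in caNrf2 wall with DSS, against 2830.5, 2230, 2190 and 2198 CPM in untreated caNrf2 wall, and 3285, 3061, 6854 and 2062 CPM in control wall with DSS, against 2728, 2498, 2937 and 2950 CPM in untreated control wall. One library of each DSS group was far above the rest, and the groups overlapped. The log2 fold change was 0.46 ± 0.32 in caNrf2 wall (edgeR adjusted p = 0.254) and 0.46 ± 0.32 in control wall (adjusted p = 0.261), and without control DSS replicate 3 the control value was 0.01.

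Actg2 had 948, 1570, 1855 and 3300 CPM in caNrf2 wall with DSS, against 1724, 1641, 1625 and 1425 CPM in untreated caNrf2 wall. Control wall had 2649, 1406, 4921 and 718 CPM with DSS, against 2221, 2192, 2666 and 1448 CPM untreated. The DSS libraries lay on both sides of the untreated range in both genotypes. Its fitted log2 fold change was 0.26 in caNrf2 wall (edgeR adjusted p = 0.662) and 0.19 ± 0.45 in control wall (adjusted p = 0.766), and -0.42 in control wall without control DSS replicate 3.

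Des, Tagln and Cnn1 gave the same picture. Des, which encodes the intermediate filament desmin, had a log2 fold change of 0.58 in caNrf2 wall (edgeR adjusted p = 0.246) and 0.46 ± 0.39 in control wall (adjusted p = 0.365). Tagln, transgelin, was at 0.71 ± 0.34 (adjusted p = 0.103) and 0.51 ± 0.34 (adjusted p = 0.239) in caNrf2 and control wall. Cnn1, calponin 1, was at 0.51 in caNrf2 wall (adjusted p = 0.314) and 0.54 ± 0.40 in control wall (adjusted p = 0.292). Tagln reached 6917 CPM in caNrf2 DSS replicate 4 and 7353 CPM in control DSS replicate 3, and lay between 2104 and 3648 CPM in the other 6 DSS libraries.

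The balance of the actins within a library did not differ beyond the spread. The log2 ratio of Acta2 to Actg2 was 0.82 ± 0.39 in caNrf2 wall with DSS and 0.55 ± 0.14 in untreated caNrf2 wall (SD, n = 4 each, exact permutation p = 0.2857, two-sided). In control wall it was 0.86 ± 0.56 with DSS and 0.41 ± 0.41 untreated (exact permutation p = 0.1714). The groups overlapped in both genotypes, and 4 libraries against 4 cannot give less than 0.0286. As a share of the summed TPM of the 10 genes, Actg2 made up 16.6 ± 2.67% in caNrf2 wall with DSS and 20.7 ± 1.42% in untreated caNrf2 wall, and 17.9 ± 4.77% in control wall with DSS and 22.7 ± 3.28% in untreated control wall (SD, n = 4 each). Tagln made up 29.1 ± 2.14% and 26.1 ± 1.09% in caNrf2 wall with DSS and untreated, and 26.8 ± 2.98% and 24.6 ± 0.50% in control wall with DSS and untreated.

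Counted in CPM, the 8 smooth muscle genes moved as a block from library to library under DSS. Replicate 4 was the highest of caNrf2 wall with DSS for 8 of 8 genes and replicate 1 the lowest for 8 of 8. Replicate 3 was the highest of control wall with DSS for 8 of 8 genes and replicate 4 the lowest for 8 of 8. By TPM the same libraries were at the ends in control wall with DSS. In caNrf2 wall with DSS the order depended on the measure. There, by TPM, replicate 2 was the highest for Myh11, Smtn and Lmod1. Replicate 3, not replicate 1, was the lowest for Acta2, Myh11, Tagln, Smtn and Lmod1. By CPM, between highest and lowest library the genes differed 1.72- to 3.48-fold in caNrf2 wall with DSS and 2.75- to 6.85-fold in control wall with DSS, against 1.17- to 1.66-fold in untreated caNrf2 wall and 1.18- to 1.84-fold in untreated control wall. Their median coefficient of variation was 44.8% in caNrf2 and 61.3% in control wall with DSS, and 13.4% in caNrf2 and 15.1% in control wall untreated. Genes with a mean of at least 100 CPM had median coefficients of variation of 20.8%, 14.5%, 10.6% and 14.7% in those 4 groups. So by CPM the spread of the muscle genes was well above that of abundant genes at large with DSS and close to it in untreated wall. The highest library of each DSS group also had its lowest total count, 27500311 in caNrf2 and 20232309 in control wall. Relative to the mean, the spread in caNrf2 wall with DSS was smaller by TPM. It was 1200 ± 214 TPM for Myh11, 302 ± 46.3 for Smtn, 114 ± 17.7 for Lmod1 and 2788 ± 949 for Actg2 (SD, n = 4). The part of depth and scaling in the spread was not tested.

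**Figure D4:**
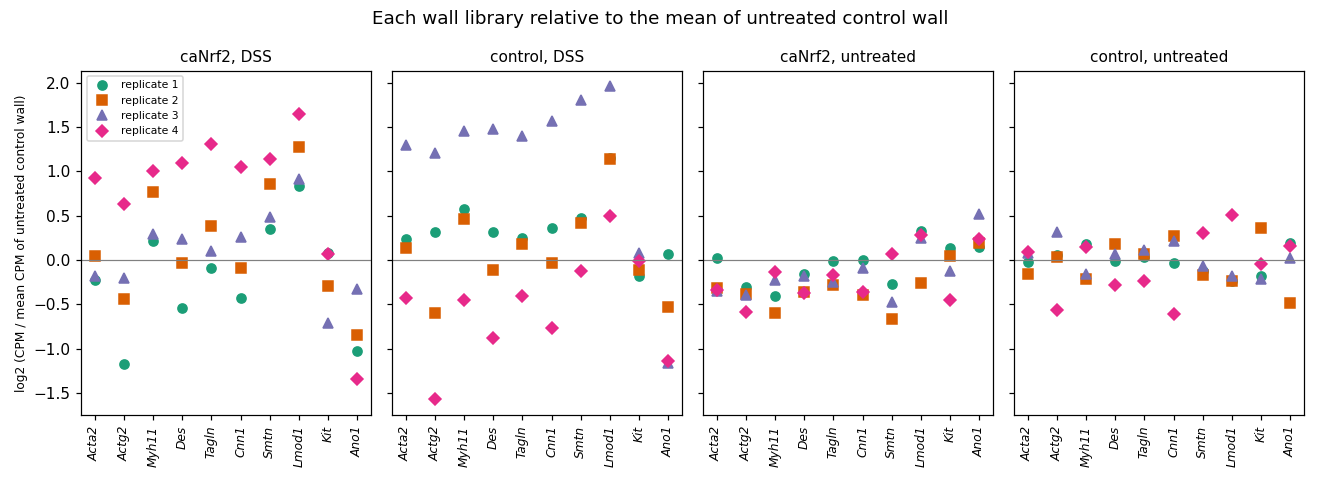
Log2 of each wall library's CPM over the mean CPM of untreated control wall, for the 10 genes in the 4 wall groups, with 1 symbol and colour per replicate number. In both DSS groups the 8 smooth muscle genes of a library lie high or low together, with control DSS replicate 3 above and control DSS replicate 4 below the others, while Kit and Ano1 do not follow.

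The block shows in correlations of log2 CPM after each group's mean was taken off. Over 16 wall libraries Pearson's r among the 28 pairs of the 8 genes lay between 0.63 and 0.98, with a median of 0.86. The median was 0.95 in the 8 DSS libraries and -0.02 in the 8 untreated ones, and 0.67 over 14 libraries when control DSS replicates 3 and 4, the farthest from their group mean, were left out. These values describe libraries that share their depth and scaling. Kit correlated with the 8 genes at 0.0 to 0.28 and Ano1 at -0.36 to -0.02, and Kit with Ano1 at -0.69 over 16, -0.76 over the 8 DSS and -0.65 over the 8 untreated libraries.

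The 5 genes most alike to the mean of the 8 by this measure, among 14192 compared over 16 libraries, were Tpm2 (r = 0.99), Hspb6 (0.982), Csrp1 (0.979), Tpm1 (0.978) and Myl9 (0.971). Tpm1 and Tpm2 encode tropomyosins and Myl9 a myosin light chain. The 30 listed contractile and cytoskeletal genes beyond the 8 had a median r of 0.8 with that mean, beside 0.02 over all other genes. No such value is given for the 8 untreated libraries alone, in which the median r among the 8 genes was -0.02. The genes most alike to Kit were Kcnn3 (0.933), Mapk4 (0.929), Enpep (0.922), Pofut2 (0.915) and AW551984 (0.914). Kcnn3 encodes a small-conductance potassium channel that is abundant in the PDGFRA-positive interstitial cells of gut muscle.

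Markers of other cell types differed between the libraries at the ends of the block. Muscle-rich and muscle-poor are named here by CPM, while the marker sums are in TPM. By TPM, replicate 1 was the lowest of caNrf2 wall with DSS only for Actg2, Des and Cnn1, and replicate 3 for the other smooth muscle genes. The summed TPM of all genes described here was 13398 in replicate 1, 14117 in replicate 3 and 22985 in replicate 4 of that group. So the contrast with replicate 1 depends in part on the measure. In caNrf2 wall with DSS, the muscle-rich replicate 4 had the lowest summed TPM of fibroblast markers (1347), endothelial markers (122.6) and leukocyte markers (135.5), and the muscle-poor replicate 1 had the highest (3151, 216.8 and 356.7). In control wall with DSS, the muscle-poor replicate 4 had the highest of all 3 (2757, 214.4 and 334.0), and the muscle-rich replicate 3 had 1786, 178.7 and 232.9, each inside its group's range. Epithelial markers summed to 19538 to 33862 TPM in caNrf2 and 21436 to 26097 TPM in control wall with DSS. The part of the makeup of the pieces in the DSS results was not tested.

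Other smooth muscle genes were in part higher with DSS. Beside the counts below, 23.1% of all genes tested were higher in each genotype, and 18.1% were lower in caNrf2 and 16.1% in control wall, and no list was tested against these shares. Of 30 other contractile and cytoskeletal genes, 18 were higher and 0 lower in caNrf2 wall, and 16 were higher and 1 lower in control wall, with median log2 fold changes of 0.79 and 0.63, and 12 and 13 were not called. Cald1, caldesmon, was among the largest, at 1.28 ± 0.22 in caNrf2 wall (edgeR adjusted p = 0.000547) and 1.12 ± 0.22 in control wall (adjusted p = 0.00134). Lmna, lamin A/C, was the 1 lower gene, at -1.03 ± 0.21 in control wall (adjusted p = 0.00168). Of 21 channels, receptors and relaxation genes, 18 were higher in caNrf2 and 17 in control wall, 0 lower in either, with medians of 1.17 and 1.11. Ednra, an endothelin receptor, was at 2.29 ± 0.43 in caNrf2 and 2.47 ± 0.43 in control wall, and Ryr2, a calcium release channel, at 2.04 ± 0.28 and 1.64 ± 0.27. Of 11 genes tested from a list of transcription factors and cofactors, 7 were higher and 1 lower in caNrf2 wall. In control wall 4 were higher and 0 lower, and the other 7 were not called. The list also held Bmp4, which encodes a secreted signal and is neither a transcription factor nor a cofactor. Bmp4 was among the higher genes in both genotypes. Gata6, a transcription factor, was the 1 lower, at -0.45 ± 0.17 in caNrf2 wall (adjusted p = 0.0399). Myocd, the gene of myocardin, was higher in caNrf2 wall by 1.08 ± 0.30 (adjusted p = 0.00885), and Nkx2-3 higher in control wall by 1.45 ± 0.26 (adjusted p = 0.000651).

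Markers of other stromal cells were set beside the same background of 23.1% of genes higher in each genotype. With DSS, 8 of 8 endothelial, 11 of 12 fibroblast and PDGFRA-cell, 13 of 13 neuronal and glial and 8 of 10 pericyte genes were higher in caNrf2 wall. In control wall 8 of 8 endothelial, 11 of 12 fibroblast and PDGFRA-cell, 11 of 13 neuronal and glial and 7 of 10 pericyte genes were higher. Their median log2 fold changes lay between 1.27 and 1.42 in caNrf2 wall and between 1.03 and 1.47 in control wall, above the medians of the 8 smooth muscle genes, and the difference was not tested. Pericytes and myofibroblasts also carry Acta2. Epithelial markers had medians of -0.20 in caNrf2 and -0.24 in control wall, with 1 of 12 higher in both genotypes, 1 lower in caNrf2 wall and 2 lower in control wall. Of 11 striated muscle genes tested 1 was higher and 2 lower in each genotype, beside that background and 16.1% to 18.1% of genes lower, and Myod1, the gene of a skeletal muscle factor, stayed at or below 0.04 TPM in all wall libraries.

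**Figure D5:**
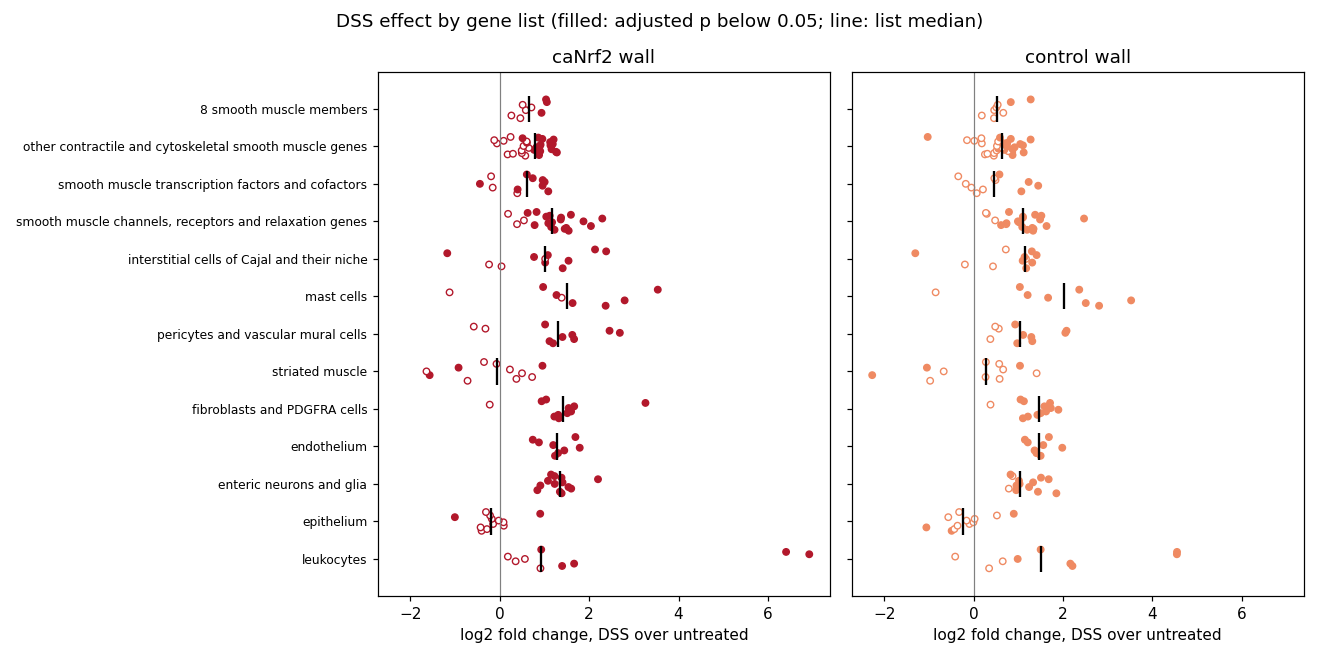
Log2 fold change of DSS over untreated wall for the genes of 13 lists, caNrf2 mice on the left and controls on the right, with filled points at adjusted p below 0.05 and a line at each list's median. The 8 smooth muscle genes lie between 0.19 and 1.28 in controls, and the lists of other stromal cells have medians above 1 in both genotypes.

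Ano1 fell with DSS in caNrf2 wall. It had 123, 139, 199 and 98.6 CPM with DSS, against 277, 286, 358 and 294 CPM in untreated caNrf2 wall. Among controls it had 263, 174, 112 and 114 CPM with DSS, against 287, 179, 255 and 280 CPM untreated. The caNrf2 groups did not overlap, and in controls 3 DSS libraries lay below all untreated ones and 1 among them. The log2 fold change was -1.12 ± 0.26 in caNrf2 wall (SE, edgeR adjusted p = 0.00355) and -0.59 ± 0.26 in control wall (adjusted p = 0.0793). In control wall it passed the threshold with DESeq2 (-0.65, adjusted p = 0.0449), with limma-voom (-0.79, adjusted p = 0.00327), without DSS replicate 1 (-0.91, adjusted p = 0.00715) and without untreated replicate 2 (-0.73, adjusted p = 0.0486). The interaction was -0.52 ± 0.37 (adjusted p = 0.848).

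Kit did not pass the threshold in the wall with DSS. It had 46.2, 35.7, 26.9 and 46.0 CPM in caNrf2 wall with DSS, against 48.1, 45.2, 40.2 and 31.99 CPM untreated. In control wall it had 38.7, 40.5, 46.1 and 43.7 CPM with DSS, against 38.8, 56.2, 37.7 and 42.6 CPM untreated. The groups overlapped in both genotypes, and the log2 fold change was -0.10 (edgeR adjusted p = 0.689) in caNrf2 wall and -0.05 ± 0.18 (adjusted p = 0.84) in control wall. The log2 ratio of Kit to Ano1 was -1.84 ± 0.79 in caNrf2 wall with DSS and -2.89 ± 0.34 untreated (SD, n = 4 each, exact permutation p = 0.0857), and -1.88 ± 0.69 in control wall with DSS and -2.51 ± 0.56 untreated (exact permutation p = 0.2286). Over the 10 ratio tests made, every adjusted p was at least 0.5238.

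Other genes of pacemaker and mast cells stood beside the same 23.1% of genes higher, and their lists were not tested against it. Of the 11 genes listed for interstitial cells of Cajal and their niche, 7 were higher and 1 lower with DSS in caNrf2 wall, and 6 higher and 1 lower in control wall. Htr2b, a serotonin receptor, was at 2.38 ± 0.39 and Tmem100 at 2.13 ± 0.47 in caNrf2 wall, and Gja1, connexin 43, at 1.41 ± 0.37 and Prkcq, a protein kinase C, at 1.31 ± 0.33 in control wall. Slc12a2 was the 1 lower gene, at -1.18 ± 0.23 in caNrf2 and -1.30 ± 0.23 in control wall. Etv1, a transcription factor of interstitial cells of Cajal, lay between 5.75 and 16.2 TPM in caNrf2 wall with DSS against 2.44 to 4.29 TPM untreated, and between 7.90 and 11.4 TPM in control wall with DSS against 3.02 to 5.08 TPM untreated, without overlap in either genotype. Of 8 mast cell genes tested, 6 were higher in caNrf2 and 7 in control wall, 0 lower in either. Mcpt2 was at 2.79 ± 0.46 in caNrf2 and 3.53 ± 0.45 in control wall.

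When the effects of DSS in caNrf2 and control wall were compared directly, 0 of 10 genes were called, beside 0.0% of 16074 genes. Across all genes 1279 had an unadjusted p below 0.05, and none of the 10 did. DESeq2 called 26 higher and 14 lower genes over the whole table and limma-voom 31 higher and 82 lower, with 0 of the 10 among them.

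In each wall group, the same transcript led on average for each of the 4 genes with 2 listed transcripts. Myh11 has a form with an extra exon of 39 bases, which ends the protein with another tail (SM2), and a form without it (SM1). The form without the exon made up 74.4, 69.7, 67.1 and 66.9% of Myh11 counts in caNrf2 wall with DSS, against 63.4, 65.5, 65.0 and 65.2% in untreated caNrf2 wall. These groups did not overlap, with means of 69.5 ± 3.49% and 64.8 ± 0.93% (SD, n = 4 each, exact permutation p = 0.0286, the smallest that 4 against 4 can give, and 0.2288 after adjustment over 8 tests). In control wall the means were 70.1 ± 1.91% with DSS and 67.8 ± 1.94% untreated (exact permutation p = 0.2). In epithelial cells, where Myh11 had few counts, the form without the exon made up 83.5 ± 22.2% in caNrf2 mice and 19.6 ± 39.1% in controls (SD, n = 4 each), with no count of it in 3 of 4 control libraries, which was not tested.

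Kit has forms with and without a stretch of 12 bases, which encodes 4 residues beside the membrane. The shorter form made up 64.3 ± 7.39% of Kit counts in caNrf2 wall with DSS and 65.1 ± 10.8% untreated (SD, n = 4 each, exact permutation p = 0.8857). In control wall it made up 78.5 ± 16.7% with DSS and 61.5 ± 6.73% untreated (exact permutation p = 0.1429), and 1 DSS library was given no count of the longer form. In epithelial cells it made up 83.1 ± 15.7% in caNrf2 mice and 64.2 ± 10.7% in controls, where 1 library had 49.1%, and this was not tested. Smtn and Ano1 were counted at over 99% as 1 transcript in each wall group on average. These shares are estimates from reads that mostly fit both forms.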

How the data were processed

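Per the file headers, each library has a table of transcripts with the estimated count of reads per transcript and its TPM, an abundance corrected for transcript length and depth. The submitters' processing notes name FastQC, RSEM 1.2.11 and build mm10, and no other step is given there. RSEM shares reads that fit several transcripts among them, so 39.2% of the deposited expected counts were not whole. Counts were summed per symbol over 30383 transcripts, rounded, and tested with edgeR 4.0.16 (R 4.3.3): TMM scaling, filterByExpr, quasi-likelihood F test, Benjamini-Hochberg adjustment over all genes tested, threshold 0.05. The 16 wall libraries shared a fit (16074 genes), the 8 epithelial libraries another (12941), and the 8 epithelial and 8 untreated wall libraries one more (15073). SE is the absolute log2 fold change over the square root of F. CPM came from these fits, with a pseudocount of 0.5 for correlations; TPM is the authors' value. Ratios and transcript shares were tested by exact two-sided permutation (scipy 1.17.1). DESeq2 1.42.0 and limma 3.58.1 served as alternatives. The tests were tested on simulated data. All 10 genes are named, and from some of the other lists a few called genes, which are not always the most changed. The labels do not say that replicate numbers pair the libraries, and the main fits did not pair them. The genes and lists were chosen with earlier results of these data known, and all lists come from textbook markers; Foxf1 and Muc2 were not among the symbols.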

Additional observations from a re-analysis of the deposited data

Results flagged for a closer look

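Of 58 sets of 4 libraries looked at, 1 for each gene and group tested, 5 held a library far from the other 3 of its group, and chance sets apart about 1 in 20 such sets. In caNrf2 wall with DSS, Acta2 stood at 5288.85 CPM in replicate 4, with the next library at 2873.4 CPM. By CPM, replicate 4 was the highest of its group for all 8 smooth muscle genes. In untreated caNrf2 wall, Acta2 stood at 2830.48 CPM in replicate 1, with the next at 2229.61 CPM, and Lmod1 at 85.74 CPM in replicate 2, with the next at 122.55 CPM. In untreated control wall, replicate 4 was apart for Smtn, at 392.13 CPM with the next at 301.31 CPM, and for Lmod1, at 146.5 CPM with the next at 90.48 CPM.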

How the results depend on the processing

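The counts of called genes between genotypes and between epithelial cells and wall did not move under any alternative tried. With DSS in caNrf2 wall 4 genes were called, and 2 to 4 when 1 library was left out. In control wall 2 were called, 1 to 3 when 1 library was left out, and 1 with RLE scaling, with no filter on low counts, with a replicate block, and with only the groups compared in the fit; Smtn was the gene lost. The replicate block changed no other count of called genes. Same-numbered libraries did not deviate together throughout (correlations between -0.558 and 0.287), which cannot show that they are unpaired. Among single genes, none that was called changed sign under any alternative tried, and those below, all uncalled, did. For caNrf2 over control in epithelial cells Acta2 was at 0.00 with RLE and with DESeq2, and Smtn at -0.07 with limma-voom and -0.01 with the block. For caNrf2 over control in untreated wall Kit was at 0.12 with limma-voom and 0.01 with replicates 1 to 3 alone, a setting added after seeing the data. For caNrf2 over control with DSS, limma-voom gave 0.23 for Myh11, 0.01 for Des, 0.23 for Smtn and 0.09 for Lmod1, and replicates 1 to 3 gave -0.56 for Tagln. For DSS in control wall limma-voom gave -0.47 for Actg2 and 0.07 for Kit, and for DSS in caNrf2 wall Actg2 was at -0.04 with limma-voom and -0.22 with replicates 1 to 3. For the difference of DSS effects Cnn1 was at 0.01 with RLE, 0.01 with DESeq2, 0.05 with limma-voom, 0.11 with the block and 0.02 with a term for the first number of the deposited name, which put Acta2 at -0.02; replicates 1 to 3 gave -0.59 for Acta2, -0.51 for Actg2, -0.10 for Myh11, -0.47 for Des, -0.31 for Tagln and -0.11 for Smtn. The cause of these changes was not tested. Leaving out 1 library at a time gave the following log2 ranges. CaNrf2 over control, epithelial cells: Acta2 -0.34 to 0.38, Smtn -0.28 to 0.24, Kit -0.27 to 0.09, Ano1 -0.08 to 0.09. CaNrf2 over control, untreated wall: Kit -0.16 to 0.06. CaNrf2 over control with DSS: Acta2 -0.53 to 0.21, Actg2 -0.69 to 0.27, Myh11 -0.30 to 0.34, Des -0.49 to 0.46, Tagln -0.32 to 0.50, Cnn1 -0.55 to 0.38, Smtn -0.31 to 0.46, Lmod1 -0.27 to 0.24, Kit -0.21 to 0.01, Ano1 -0.46 to 0.07. DSS in control wall: Actg2 -0.42 to 0.49, Des -0.14 to 0.73, Cnn1 -0.07 to 0.80, Kit -0.19 to 0.09. DSS in caNrf2 wall: Actg2 -0.16 to 0.44, Kit -0.25 to 0.04. Difference of DSS effects: Acta2 -0.27 to 0.45, Actg2 -0.24 to 0.68, Des -0.19 to 0.73, Tagln -0.12 to 0.67, Cnn1 -0.31 to 0.58, Lmod1 -0.46 to 0.08, Kit -0.18 to 0.10. The spread limits what 4 libraries a group can show: the SE of the DSS change was 0.32 for Acta2 and 0.45 for Actg2 in control wall. Lmod1 had too few counts to be tested between genotypes in epithelial cells.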
